A study of Homo sapiens with 6 samples.

Results

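The ribosome biogenesis and nucleolar genes are 57 genes that make and assemble the ribosome. The nucleolus is the nuclear body where ribosomal DNA (rDNA) is transcribed by RNA polymerase I. There the precursor RNA is cut, modified by small nucleolar ribonucleoproteins (snoRNPs) and stand-alone enzymes, and folded with ribosomal proteins into the small and large subunits. Cancer cells often have enlarged nucleoli, and many of these genes are textbook targets of the transcription factor MYC. The genes were taken as a named list, and a gene was read by the brightest of its probe sets annotated to that gene alone, by the mean over all 6 arrays. On this basis 47 of the 57 members were measured, out of 11963 genes in all.

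The samples were HCT116 cells, an established human colon cancer line, carrying a lentiviral (FUGW) short hairpin RNA. In 3 samples the hairpin was against NFX1-91, a splice form of the zinc finger protein NFX1, and in the other 3 it was a control hairpin against the reporter enzyme β-galactosidase. Both groups were thus transduced and stably express a hairpin, and no untransduced cells were compared. Separate cultures, hairpins or clones within a group are not named in the labels, so p-values measure only how these arrays vary, and that variation may be technical. In bulk RNA a change per cell and a change in the make-up of the culture cannot be told apart. Total RNA was read on Affymetrix arrays as a signal, scaled here to a mean of 500 per array, and a log2 fold change is that of signal + 16 in NFX1-91 shRNA minus control shRNA arrays, which understates the change of dim genes.

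Correlation of log2 signals over genes was 0.993 to 0.995 within groups and 0.984 to 0.985 between groups. The brightest NFX1 probe set had signals of 124, 139 and 138 in NFX1-91 shRNA arrays, against 159, 144 and 139 in control shRNA arrays, and its log2 fold change of -0.13 did not pass (adjusted p = 0.362, limma). Of its 2 other probe sets, a dim one had 8.87, 8.83 and 4.56 in NFX1-91 shRNA arrays, against 16.8, 17.7 and 24.4 in control shRNA arrays, and passed as lower (-0.60, adjusted p = 0.0137, limma over probe sets), and the other did not pass (-0.064, adjusted p = 0.775). Which splice forms of NFX1 each probe set reads is not given in the annotation used here. Of 9 colon epithelium markers, EPCAM, KRT8, KRT18, KRT19 and CDH1 were bright and CDX2 dimmer (72.3 and 66.9 in NFX1-91 shRNA and control shRNA arrays), while VIL1, LGALS4 and CDH17 lay below a signal of 16 in both groups. The summed signal of the 9 was 27910 to 28074 in NFX1-91 shRNA arrays and 23205 to 24077 in control shRNA arrays, with KRT8 and KRT18 higher and EPCAM and CDH1 lower. The 8 markers of blood, vessel, fibroblast and liver cells summed to 325 to 374 in NFX1-91 shRNA arrays and 302 to 360 in control shRNA arrays, and 0 passed in limma.

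Members went both ways. Of the 47 measured, 18 were higher and 13 lower in cells with the NFX1-91 hairpin, and 16 did not pass an adjusted p of 0.05 (limma, Benjamini-Hochberg over all genes). The rises were small, with log2 fold changes of 0.08 to 0.42, and the falls reached further, from -0.14 to -1.37. Past a log2 fold change of 0.5 in size, 6 of the called members were lower and 0 higher, beside 7.62% and 4.46% of all genes. Among 92 further measured genes of the pathway, described below, 2 of those called were lower and 5 higher past that size. Over all genes, 32.5% were called by that test, 14.7% higher and 17.8% lower. The members were bright, none below percentile 52.2 of mean signal, and among the 5725 genes at least as bright as the dimmest of them 53.3% were called, 24.1% higher and 29.2% lower, and 55.3% of those at least as bright as the median member. The members' shares were 66.0% called, 38.3% higher and 27.7% lower. Since the members were chosen with earlier results of these data known, these shares describe the list and were not tested against the others.

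The median log2 fold change of the members was 0.043, beside 0.0036 over all genes. The signals of the groups did not overlap for 37 members, 20 of them higher and 17 lower, beside 43.5% of all genes and 63.9% of those at least as bright as the dimmest member. Without the second NFX1-91 shRNA array 11 members were called higher, beside 1265 of all genes. Without the third control shRNA array the members' median was -0.0081. Without a variance trend in the fit 11 members were higher and 11 lower, beside 1471 and 1877 of all genes. Of the 31 called members, 19 kept the call without each array in turn, 10 higher and 9 lower. Centring each array on its median gave 21 higher and 11 lower members, and turned the split over all genes to 2404 higher and 1740 lower, where the main scale gave 1762 and 2128.

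**Figure D1:**
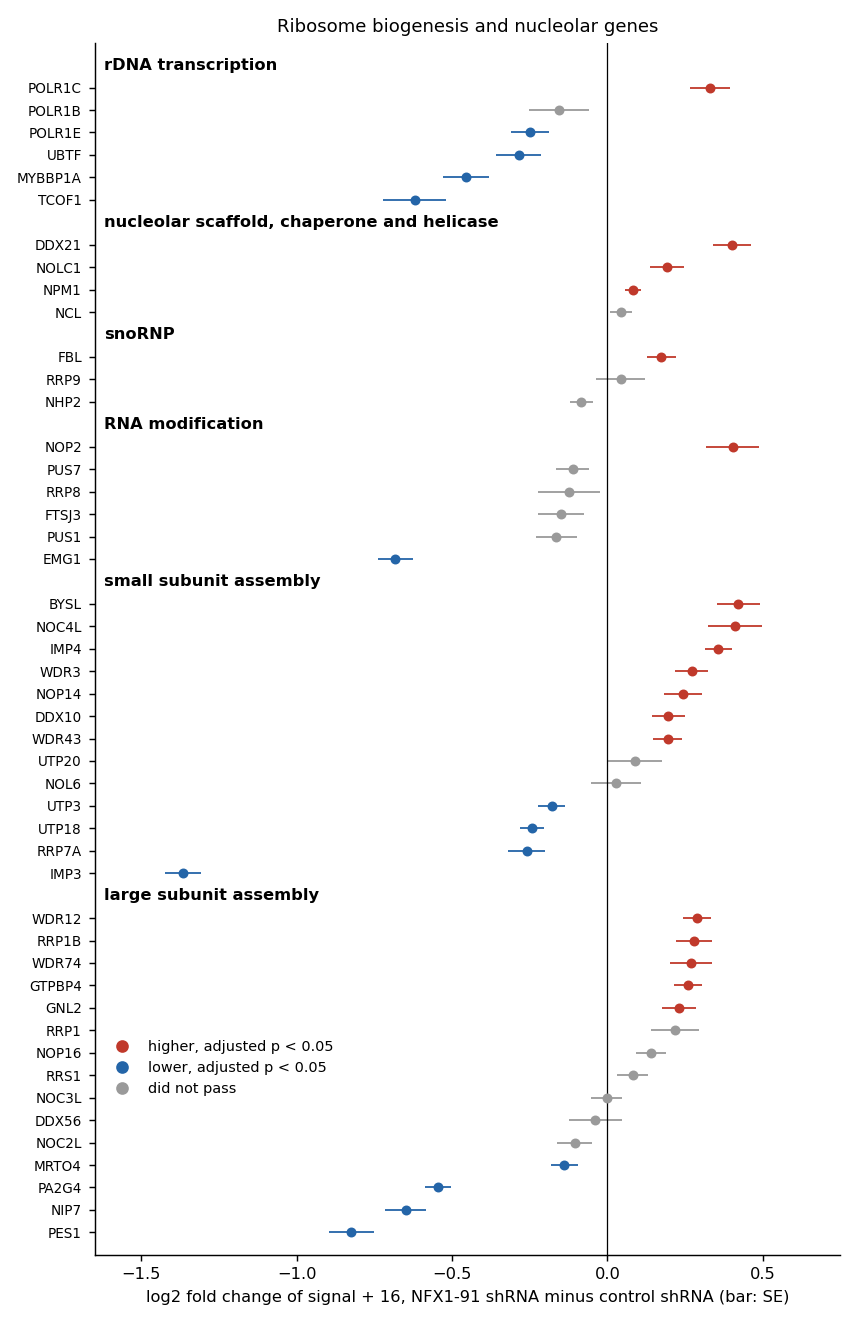
Log2 fold change of signal + 16 for the 47 measured members, NFX1-91 shRNA minus control shRNA, with the SE as bar, grouped by role. Red points passed as higher (18), blue as lower (13) and grey did not pass (16). IMP3 lies furthest from 0, at -1.37.

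**Figure D2:**
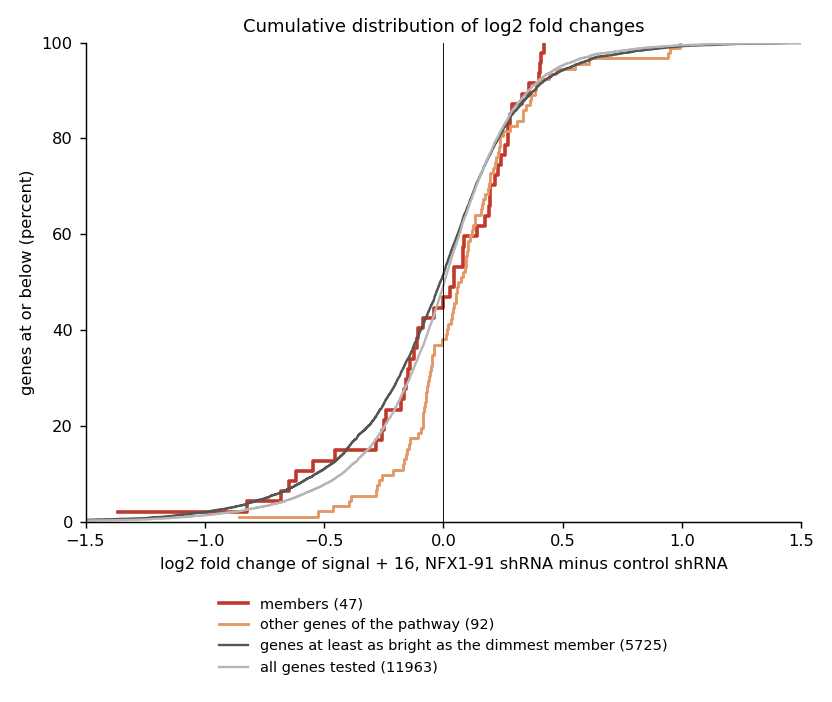
Cumulative share of genes at or below each log2 fold change, for the 47 members, 92 other genes of the pathway, the 5725 genes at least as bright as the dimmest member and all 11963 genes tested. The curve of the members ends at 0.42 on the right and has its lowest member at -1.37; the x axis is limited to 1.5 either side of 0.

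Of 6 measured members that act in rDNA transcription, 4 fell, 1 rose and 1 did not pass, beside 17.8% of all genes and 29.2% of genes at least as bright as the dimmest member called lower. Of 9 further rDNA transcription genes outside the members, 1 fell, 1 rose and 7 did not pass. TCOF1 encodes treacle, a nucleolar factor of polymerase I transcription. Its signal was 323, 363 and 387 in NFX1-91 shRNA arrays, against 478, 617 and 586 in control shRNA arrays, which gives -0.62 on the log2 scale (SE 0.101, adjusted p = 0.00108, limma). MYBBP1A, a nucleolar protein that binds MYB and acts in rDNA regulation, gave 269, 315 and 285 in NFX1-91 shRNA arrays and 420, 389 and 398 in control shRNA arrays (-0.45, SE 0.075, adjusted p = 0.00115, limma). For both genes the groups were well apart.

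POLR1E, a subunit found in polymerase I, had 501, 505 and 541 in NFX1-91 shRNA arrays and 645, 625 and 578 in control shRNA arrays (-0.25, SE 0.062, adjusted p = 0.0121, limma). UBTF, the HMG-box activator of rDNA, fell by 0.28 (SE 0.073, adjusted p = 0.0131). POLR1C, which polymerases I and III share, went the other way, with 973, 998 and 1070 in NFX1-91 shRNA arrays against 874, 775 and 762 in control shRNA arrays (0.33, SE 0.064, adjusted p = 0.00299, limma). The log2 ratio of POLR1C to POLR1E was 0.94 to 0.96 in NFX1-91 shRNA arrays and 0.30 to 0.43 in control shRNA arrays. POLR1B, the second largest subunit of polymerase I, gave -0.16 and did not pass (adjusted p = 0.268), and POLR1A was not measured. The calls of POLR1E and UBTF were lost without the second control shRNA array (adjusted p = 0.0533 and 0.0634) and without the second NFX1-91 shRNA array (0.0628 and 0.0519).

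Of 4 abundant proteins of the nucleolus, 3 rose and 0 fell. Called higher were 14.7% of all genes and 24.1% of genes at least as bright as the dimmest member. Of genes at least as bright as the median member, 55.3% were called in either direction. DDX21, an RNA helicase of polymerase I transcription and rRNA processing, gave 3541, 3329 and 3267 in NFX1-91 shRNA arrays and 2771, 2330 and 2584 in control shRNA arrays (0.40, SE 0.061, adjusted p = 0.00068, limma). NOLC1, a chaperone of snoRNPs, had 3789, 3920 and 3806 in NFX1-91 shRNA arrays and 3698, 3235 and 3165 in control shRNA arrays (0.19, SE 0.055, adjusted p = 0.0231, limma). All 3 probe sets of NOLC1 passed as higher. NPM1, the histone and ribosome chaperone nucleophosmin, was among the brightest genes of the arrays, with 9788, 9711 and 9614 in NFX1-91 shRNA arrays and 9313, 9124 and 9063 in control shRNA arrays. Its groups did not overlap, though it rose by 0.082 at the log2 level (SE 0.026, adjusted p = 0.0351), and its 3 probe sets all passed as higher.

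NCL, the RNA-binding nucleolin, did not pass. It gave 6395, 6052 and 6088 in NFX1-91 shRNA arrays and 6085, 6101 and 5778 in control shRNA arrays, which overlap (0.045, SE 0.035, adjusted p = 0.394, limma). The call of NPM1 was lost by quantile normalization (adjusted p = 0.113), and the adjusted p without single arrays was 0.0980 without control shRNA array 3, 0.107 without control shRNA array 2, and 0.115, 0.0985 and 0.0713 without NFX1-91 shRNA arrays 1, 2 and 3. NOLC1 lost its call without any array but the first control one (0.0579 to 0.0995).

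Of the snoRNP proteins 3 of 6 were measured. FBL, fibrillarin, the methyltransferase of box C/D snoRNPs, had 5719, 5554 and 5638 in NFX1-91 shRNA arrays and 5327, 5013 and 4663 in control shRNA arrays (0.17, SE 0.046, adjusted p = 0.0152, limma). Its groups were separate, and its adjusted p was 0.0617 without NFX1-91 shRNA array 1 and 0.0522 without NFX1-91 shRNA array 3. NHP2, a core protein of H/ACA snoRNPs, which make pseudouridine, gave -0.084, and RRP9, a protein of the U3 snoRNP, 0.043, and neither passed (adjusted p = 0.121 and 0.739). NOP56, NOP58 and DKC1 have no probe set of their own here.

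Among 6 RNA-modifying enzymes a single one fell and a single one rose, beside 17.8% of all genes called lower and 14.7% higher. EMG1 methylates a pseudouridine of the small subunit RNA. It had 1089, 1144 and 1185 in NFX1-91 shRNA arrays, against 1964, 1824 and 1730 in control shRNA arrays, or -0.68 on the log2 scale (SE 0.056, adjusted p = 1.55e-05, limma). NOP2, a cytosine methyltransferase of the large subunit RNA, had 1091, 1110 and 1150 in NFX1-91 shRNA arrays and 960, 848 and 729 in control shRNA arrays (0.40, SE 0.086, adjusted p = 0.00496, limma). The control arrays spread more than the NFX1-91 shRNA arrays for NOP2, yet all lay below them.

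The other 4 enzymes gave log2 fold changes of -0.11 to -0.16 and did not pass. They were the pseudouridine synthases PUS1 (-0.16) and PUS7 (-0.11), the methyltransferase RRP8 (-0.12) and FTSJ3 (-0.15), a methyltransferase of large subunit maturation. PUS1 passed without the third control shRNA array (-0.22, adjusted p = 0.0389).

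The small subunit is assembled on the U3 snoRNP and a large set of helper proteins, the processome. Of 13 measured members, 7 rose, 4 fell and 2 did not pass. Over all genes 14.7% were called higher and 17.8% lower, and 24.1% and 29.2% of genes at least as bright as the dimmest member. IMP3 had the largest change of all members, with 484, 484 and 542 in NFX1-91 shRNA arrays against 1367, 1282 and 1313 in control shRNA arrays. That is 2.58-fold lower on the log2(signal + 16) scale (-1.37, SE 0.059, adjusted p = 4.8e-07, limma). IMP4, its partner in the MPP10 complex, which joins U3 to the precursor RNA, was higher, with 1596, 1660 and 1569 in NFX1-91 shRNA arrays and 1295, 1250 and 1212 in control shRNA arrays (0.36, SE 0.045, adjusted p = 0.000202, limma).

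MPHOSPH10, the third protein of that complex and not a member, also rose (0.19, adjusted p = 0.00747). The log2 ratio of IMP4 to IMP3 was 1.51 to 1.75 in NFX1-91 shRNA arrays and -0.114 to -0.036 in control shRNA arrays, a difference of 1.72 (SE 0.076). This pair and the other ratios were chosen after the values were seen, and since their genes were already apart in opposite directions, the ratios restate those values. An exact permutation of the arrays gave p = 0.1 for each ratio. That is the lowest value 3 against 3 arrays can give, so it decides nothing. IMP3 and IMP4 have 1 probe set each, so no second probe set bears on either.

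BYSL, bystin, a factor of late small subunit precursors, had 1019, 1094 and 1041 in NFX1-91 shRNA arrays and 868, 721 and 761 in control shRNA arrays (0.42, SE 0.069, adjusted p = 0.00109, limma). NOC4L, the partner of NOP14, had 376, 372 and 416 in NFX1-91 shRNA arrays and 323, 283 and 260 in control shRNA arrays (0.41, SE 0.088, adjusted p = 0.00531, limma). These were the largest rises among members, and in both genes every NFX1-91 shRNA array lay above every control array. NOP14 itself rose by 0.24, and the WD-repeat proteins WDR3 by 0.27 and WDR43 by 0.19, and the helicase DDX10 by 0.20.

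UTP18, a WD-repeat protein of the processome, went down, with 2145, 2073 and 2072 in NFX1-91 shRNA arrays against 2568, 2462 and 2422 in control shRNA arrays (-0.24, SE 0.039, adjusted p = 0.000935, limma). By the mean of its 2 probe sets it did not pass (-0.040, adjusted p = 0.807), the other being dim with a log2 fold change of 0.16. RRP7A and UTP3 fell by 0.26 and 0.18. With each array centred on its median UTP3 missed the threshold (-0.11, adjusted p = 0.0732). UTP20 (0.088) and NOL6 (0.029) did not pass, and UTP4 was not measured. Without the second NFX1-91 shRNA array the adjusted p was 0.0509 for RRP7A, 0.0584 for WDR43, 0.0544 for NOP14 and 0.0808 for DDX10. NOP14 and DDX10 also missed the threshold without control shRNA array 2 (0.0637 and 0.0516) and 3 (0.0530 and 0.0694), and DDX10 without NFX1-91 shRNA array 3 (0.0554).

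**Figure D3:**
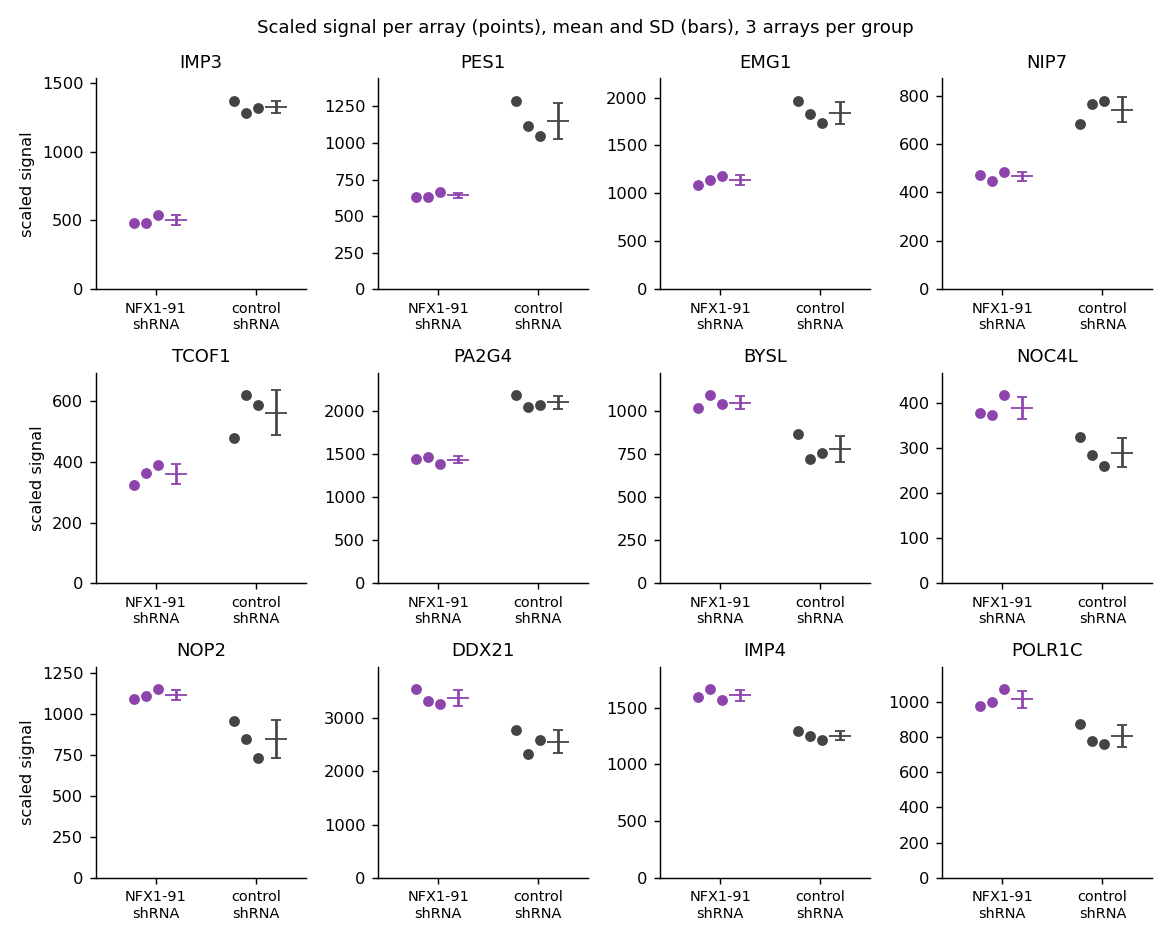
Scaled signal on each array for 12 members, NFX1-91 shRNA left and control shRNA right, each point an array, with the mean and SD of 3 arrays beside them. The 6 members in the panels from IMP3 to PA2G4 have every NFX1-91 shRNA array below every control array, and the 6 from BYSL to POLR1C have every NFX1-91 shRNA array above. The panels are the members with the largest changes in each direction, so this separation follows from the choice. Groups did not overlap for 43.5% of all genes and 63.9% of genes at least as bright as the dimmest member.

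Of 15 measured large subunit factors, 5 rose, 4 fell and 6 did not pass, beside 14.7% of all genes higher and 17.8% lower. Among genes at least as bright as the dimmest member these shares were 24.1% and 29.2%. PES1, NIP7 and PA2G4 changed more than any of the 5 rises, and MRTO4, the other fall, changed less than any of them. PES1, pescadillo, a subunit of the PeBoW complex of large subunit maturation, had 631, 631 and 663 in NFX1-91 shRNA arrays against 1287, 1120 and 1048 in control shRNA arrays (-0.82, SE 0.073, adjusted p = 2.43e-05, limma). NIP7, a factor of late precursor processing, had 472, 446 and 483 in NFX1-91 shRNA arrays and 683, 766 and 778 in control shRNA arrays (-0.65, SE 0.066, adjusted p = 5.54e-05, limma). PA2G4, also called EBP1, a growth-linked protein that binds precursor ribosomes, gave 1443, 1472 and 1392 in NFX1-91 shRNA arrays and 2184, 2050 and 2071 in control shRNA arrays (-0.54, SE 0.043, adjusted p = 1.31e-05, limma). For these 3 genes the groups lay far apart relative to their spread, and the second probe set of PA2G4 also fell (-0.46).

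WDR12, which joins PES1 in the PeBoW complex, was higher, with 1705, 1819 and 1747 in NFX1-91 shRNA arrays and 1491, 1388 and 1430 in control shRNA arrays (0.29, SE 0.045, adjusted p = 0.000819, limma). The log2 ratio of WDR12 to PES1 was 1.38 to 1.51 in NFX1-91 shRNA arrays and 0.21 to 0.44 in control shRNA arrays. The third subunit, BOP1, has no probe set of its own.

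The other rises were even in size. RRP1B rose by 0.28, WDR74 by 0.27, and the nucleolar GTPases GTPBP4 and GNL2 by 0.26 and 0.23. MRTO4, a relative of the ribosomal stalk protein, fell by 0.14 (adjusted p = 0.0333). RRP1 (0.22), NOP16 (0.14), RRS1 (0.081), NOC3L (-0.0018), the helicase DDX56 (-0.038) and NOC2L (-0.11) did not pass. The call of MRTO4 was lost without any single array (adjusted p = 0.0506 to 0.0898), with each array centred on its median (-0.073, adjusted p = 0.271) and with a replicate block (0.0713). GNL2 missed without the second NFX1-91 shRNA array (0.0578), and WDR74 without it (0.0612) or the second control one (0.0523). RRP1 and NOP16 passed without the first control shRNA array (adjusted p = 0.00651 and 0.0155), and NOP16 also without the third NFX1-91 shRNA array (0.0438).

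**Figure D4:**
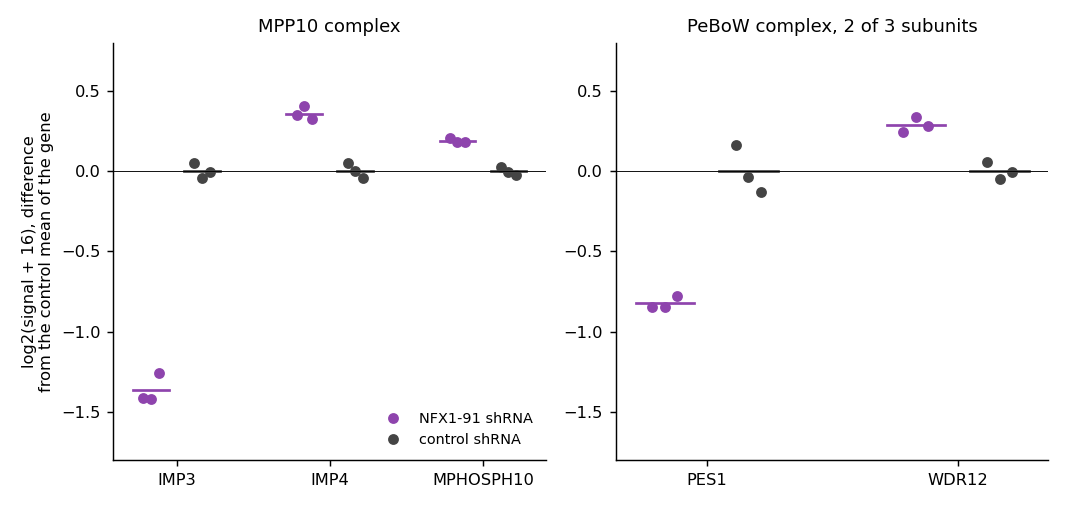
Log2(signal + 16) on each array, as the difference from the gene's own control mean, for 3 proteins of the MPP10 complex and 2 of the PeBoW complex; NFX1-91 shRNA is left of control shRNA, points are arrays and lines are means. IMP3 and PES1 lie below 0 in all NFX1-91 shRNA arrays, while IMP4, MPHOSPH10 and WDR12 lie above 0.

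Most members could be checked against no second probe set, since 34 of the 47 have a single one. Among 11 called members with further single-gene probe sets, at least 1 of these also passed in the same direction for 7, and for 0 did any pass in the opposite direction (limma over probe sets). POLR1C (0.37), TCOF1 (-0.46), UBTF (-0.38) and GTPBP4 (0.29) were among the 7. RRP1B (0.38), WDR74 (0.18) and the other single-gene probe set of RRP7A (-0.20) kept the sign without passing. For UTP18 the other probe set, a dim one, had the opposite sign and did not pass.

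A list of 110 further genes of the pathway, of which 92 were measured, was read in the same way. In it 28 rose, 12 fell and 52 did not pass, so 43.5% were called, beside 32.5% of all genes and 53.3% of genes at least as bright as the dimmest member, with a median log2 fold change of 0.068. Of all genes, 14.7% were higher and 17.8% lower, and 24.1% and 29.2% of genes at least as bright as the dimmest member. Small subunit factors had 13 higher and 2 lower of 24. The helicase DDX52 (0.95), UTP6 (0.94) and RRP12 (0.38) rose most, and RCL1 (-0.39) and TSR1 (-0.15) fell. Large subunit factors had 9 higher and 3 lower of 33. RRP15 (0.99), NOL10 (0.61) and the export adaptor NMD3 (0.55) were the largest rises, and the SUMO protease SENP3 (-0.53), EFL1 (-0.27) and NOL9 (-0.16) fell.

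Polymerase I and its cofactors in that list had 1 higher and 1 lower of 9, TAF1D (0.47) and POLR1D (-0.17). Among 9 snoRNP genes, NUFIP1 (0.39), GAR1 (0.23) and RUVBL2 (0.20) rose and the H/ACA assembly factor SHQ1 (-0.86) and RUVBL1 (-0.26) fell. Of 6 modifying enzymes METTL5 (-0.46) and DIMT1 (-0.28) fell and 0 rose. The RNA exosome, which trims precursor RNA, had EXOSC10 (0.35) and C1D (0.16) higher and EXOSC4 (-0.39) and EXOSC2 (-0.28) lower of 11. When all probe sets of each gene were averaged, 7 genes of this list were lower.

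**Figure D5:**
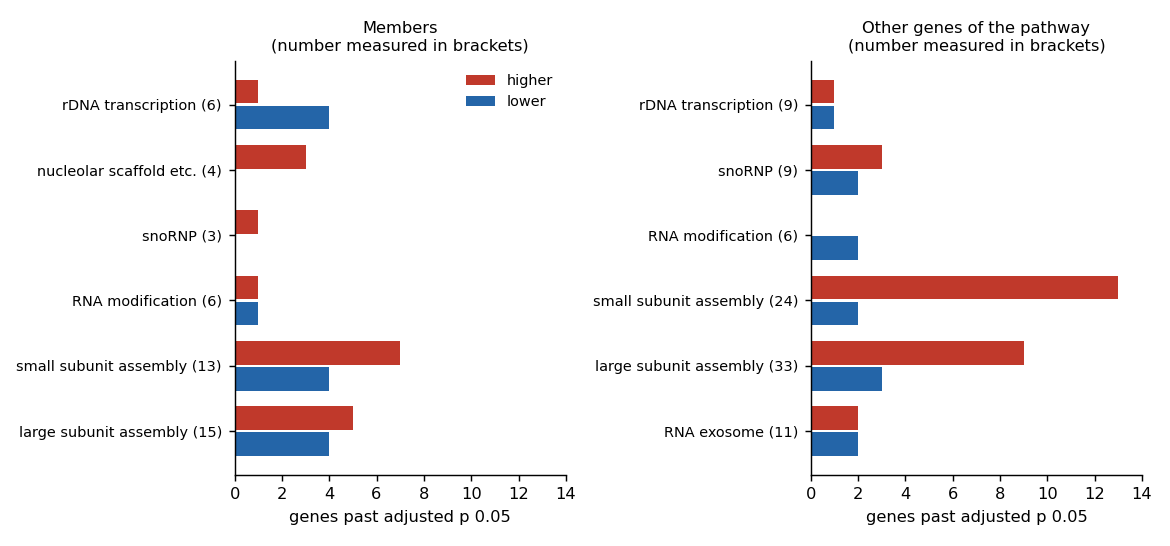
Number of genes past an adjusted p of 0.05 in limma, higher (red) and lower (blue) in NFX1-91 shRNA relative to control shRNA, by role, for members (left) and other genes of the pathway (right). Small subunit factors have 7 higher and 4 lower among members, and 13 higher and 2 lower among the other genes. Over all genes 14.7% were higher and 17.8% lower.

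A sequence feature is common in the promoters of the members. The E-box CACGTG, a palindrome bound by MYC, MAX and USF proteins, was searched in RefSeq promoters on GRCh38.p14 that run from 250 bases before to 50 after a gene's start. Promoters were found for 48 of 57 members, and 20 of these 48 members, or 41.7%, hold the E-box in at least 1 promoter. Counted in the same way, it is in 1144 of the 9563 tested genes with a promoter, and 14.2% of those at least as bright as the dimmest member. By single promoters, a measure unlike these shares of genes, it is in 7.26% of all 35116. Of the further pathway genes 20 of 80 hold it. The list is known for MYC targets, so this share is a description of the list.

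Members of both directions carried it. They were 8 of the 16 higher ones with a promoter, 4 of the 11 lower ones and 5 of the 14 that did not pass. Over all 1144 tested genes with the E-box, 16.2% were higher and 20.7% lower. MYC gave signals of 3895, 3800 and 3630 in NFX1-91 shRNA arrays and 2863, 2971 and 3068 in control shRNA arrays, a log2 fold change of 0.35 (adjusted p = 0.000135, limma). USF2 gave 182, 209 and 223 in NFX1-91 shRNA arrays and 284, 329 and 385 in control shRNA arrays (-0.66, adjusted p = 0.00163, limma), and MAX did not pass (0.13, adjusted p = 0.0672). USF1 was not measured. MAX has 5 single-gene probe sets and USF2 has 3, and the values here are of the brightest of each.

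Most of the E-boxes lie just past the gene's start: 16 of 23 in member promoters begin at or after it and 7 before it. The sites of the called members are shown so that their flanks can be set side by side, with the E-box in capitals and up to 12 bases on each side, 5′ to 3′ on the gene's strand, higher members first.
BYSL, chr6:41921515-41921544, plus strand: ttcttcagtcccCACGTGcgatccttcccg
NOP2, chr12:6568242-6568268, minus strand: aggtccggattgCACGTGgagggccgc
DDX21, chr10:68956604-68956633, plus strand: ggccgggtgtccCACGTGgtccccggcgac
IMP4, chr2:130342682-130342711, plus strand: gcggtcctaagtCACGTGtgacattctgta
IMP4, chr2:130342900-130342929, plus strand: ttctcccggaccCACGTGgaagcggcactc
NOP14, chr4:2963374-2963403, minus strand: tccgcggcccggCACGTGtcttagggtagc
GNL2, chr1:37595917-37595946, minus strand: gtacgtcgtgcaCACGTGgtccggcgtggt
WDR43, chr2:28894658-28894687, plus strand: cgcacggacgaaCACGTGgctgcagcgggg
FBL, chr19:39846356-39846385, minus strand: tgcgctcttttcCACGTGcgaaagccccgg
MRTO4, chr1:19251807-19251836, plus strand: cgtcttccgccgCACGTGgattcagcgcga
UTP18, chr17:51260445-51260474, plus strand: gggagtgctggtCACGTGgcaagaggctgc
UTP18, chr17:51260538-51260567, plus strand: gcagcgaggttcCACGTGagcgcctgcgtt
MYBBP1A, chr17:4555340-4555369, minus strand: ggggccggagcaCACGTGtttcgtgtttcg
PES1, chr22:30591880-30591909, minus strand: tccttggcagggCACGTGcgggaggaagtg
The core is the same in each because it was the string searched, and the flanks differ between sites.

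The pairs of complex partners were chosen after the values were seen, and whether the E-box goes with direction in them was not tested. Of the MPP10 pair, IMP4, which was higher, holds it and IMP3, which was lower, does not. Of the PeBoW pair, PES1, which was lower, holds it, and no site was found for WDR12, which was higher. No site was found for POLR1C or POLR1E either. Not all members had a promoter to search. For WDR12, POLR1C and POLR1E, a promoter without the E-box and a promoter that was not listed are therefore not told apart here. The 250 bases before each start are shown for IMP4 and IMP3, since IMP3 has the largest change of the members, with the E-box in capitals. IMP4 holds it 203 bases before its start as well as in the site after it, and the window of IMP3 does not hold these letters.
IMP4, chr2:130342647-130342896, plus strand: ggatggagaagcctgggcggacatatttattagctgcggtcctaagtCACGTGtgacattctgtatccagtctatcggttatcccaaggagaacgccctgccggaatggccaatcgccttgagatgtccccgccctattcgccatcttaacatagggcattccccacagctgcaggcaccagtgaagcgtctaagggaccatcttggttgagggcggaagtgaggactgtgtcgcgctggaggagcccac
IMP3, chr15:75640225-75640474, minus strand: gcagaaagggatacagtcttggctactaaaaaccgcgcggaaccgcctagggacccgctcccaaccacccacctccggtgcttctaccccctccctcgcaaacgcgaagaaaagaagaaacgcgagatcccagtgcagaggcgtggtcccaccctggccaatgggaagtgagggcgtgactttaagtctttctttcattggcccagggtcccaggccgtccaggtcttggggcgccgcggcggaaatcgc
A missing match says nothing of what binds there.

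The other motifs were searched on both strands. Shares are again of genes with a promoter, counted when any of their promoters held the motif. CACGCG, a variant of the E-box, is in 33.3% of members, against 23.7% of genes at least as bright as the dimmest member. CCGGAAG, the site of ETS factors, is in 39.6% of members, against 25.1% of those bright genes. The longer palindrome known as the site of the zinc finger protein ZBTB33 (Kaiso) is in 1 member, or 2.08%, against 1.34% of those bright genes. Of the further pathway genes 37.5% hold CACGCG and 43.8% hold CCGGAAG. In member promoters the E-box overlaps none of these other matches.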

How the data were processed

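Biotin-labelled cRNA was read on Affymetrix arrays, per the labels' protocols. The table deposited by the authors gives linear intensity values of 22215 probe sets, which sum to 1 on each array. The probe summary and scaling behind them are not given in the sources used here. Each array was multiplied to a mean of 500, and log2(signal + 16) was taken; 24.1% to 25.9% of probe sets lay below 16. Scanner files were not used here.

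The platform annotation given with the series names 19064 probe sets with 1 gene, 1043 with several and 2108 with none. Symbols were checked by gene ID against RefSeq genes of GRCh38.p14 (19052 matched, 0 changed). Promoters come from RefSeq on GRCh38.p14.

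The fit was an unpaired, two-sided limma 3.58.1 model with a variance trend (R 4.3.3). P-values were adjusted by Benjamini-Hochberg over 11963 genes, and 0.05 was the threshold. Probe sets were adjusted over all probe sets. Figures used Python 3.11.15 and matplotlib 3.10.9. The members and lists were chosen with earlier results of these data known. Signals per array were given for up to 4 called members per role with the smallest adjusted p. They were also given for the 5 largest rises and falls, NPM1, NCL and FBL. For further pathway genes, log2 fold changes were given for the 3 largest called rises and falls per role. On simulated data (11963 genes, 200 of them changed, independent noise), 19.6% of 1.25-fold and 87.4% of 2-fold changes were recovered, and 3.57% of calls were false. Far more genes, 3890, were called in the data, and noise shared between arrays was not simulated. These rates check the code and need not hold for these arrays. Alternatives were other scalings, offsets of 1 and 64, leaving out dim genes, other variance priors and probe set rules, array weights, a replicate block, a threshold of 0.01 and leaving out each array. The number of arrays limits the precision.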

Additional observations from a re-analysis of the deposited data

Results flagged for a closer look

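Of the 10 members without a probe set of their own, 4 have probe sets annotated to them together with other genes, which the comparison of genes did not use. Counting those that also read a measured member, there are 10 such probe sets, of which 3 were higher, 2 lower and 5 did not pass (limma over all probe sets). The share called over all probe sets is not given here. Over all genes, a measure unlike this, 14.7% were higher and 17.8% lower. The 3 that were higher stand here because their signal lay above the control level, and the others are given beside them. Both probe sets annotated to BOP1 and the microRNA gene MIR7112 were higher, with log2 fold changes of 0.45 (adjusted p = 0.000804) and 0.45 (adjusted p = 0.00196). A probe set annotated to NOP56 with its intronic snoRNA genes and a microRNA gene gave 0.20 (adjusted p = 0.00843), and the second such probe set gave 0.15 and did not pass (adjusted p = 0.0997). The 3 probe sets annotated to DKC1 with a snoRNA gene and a microRNA gene gave -0.050, -0.013 and 0.15 and did not pass (adjusted p = 0.424, 0.889 and 0.0614). A probe set shared by RRP7A and RRP7BP gave -0.060 and did not pass (adjusted p = 0.748). The probe set annotated to PPAN and its read-through transcript was lower (-0.65, adjusted p = 0.00191), the largest change of the 10. The second probe set shared by RRP7A and RRP7BP was also lower (-0.49, adjusted p = 0.0404). Which of the annotated genes these signals come from was not tested. The 6 other members without a probe set of their own are NOP58, DDX18, UTP4, POLR1A, EBNA1BP2 and GNL3.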

How the results depend on the processing

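Of 31 called members, 17 kept the call in all 18 alternatives, 14 lost it in at least 1 and 0 changed direction. The members called higher were 18 in the main comparison, 11 without a variance trend and 11 to 20 without each array in turn. Those called lower were 13, and 9 to 13 without each array. Over all genes, 1762 were higher and 2128 lower in the main comparison, and 1471 and 1877 without a variance trend. Without each array in turn 1265 to 1845 of all genes were higher and 1650 to 2075 lower. The lower genes of the further pathway list were 12, and 7 by the mean of probe sets. The members' median of 0.043 became 0.11 with each array centred on its median, where the median of all genes moved alike, to 0.070 against 0.0036, and was -0.0081 to 0.079 without each array in turn. That centring turned the split of all calls to 2404 higher and 1740 lower, and all counts grew with array weights (2422 and 2671 over all genes, 20 and 16 for members). At a threshold of 0.01, 12 members were higher and 9 lower, beside 1136 and 1539 of all genes.

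Reversals occurred only for members that did not pass: DDX56 with median centring (0.028), NOC3L with quantile normalization (0.021), median centring (0.065) and array weights (0.027), and NOP16 (-0.039) and RRP8 (0.054) with shared probe sets left out. Without each array in turn, DDX56 ran from -0.11 to 0.060, NOC3L from -0.032 to 0.048, NOL6 from -0.039 to 0.091 and RRP9 from -0.0081 to 0.11. The cause of these changes was not tested.

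Samples of the same replicate number showed little shared deviation (correlations of -0.03, 0.08 and -0.02, beside -0.06 to 0.07 for unlike numbers). With so few arrays this cannot tell whether the numbers pair them. With a replicate block 18 members were higher and 12 lower, beside 1629 and 1969 of all genes.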
